A study of Mus musculus with 6 samples.

Results

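The genes described are 10 chemokine genes, Ccl3, Ccl4, Ccl5, Xcl1, Ccl6, Ccl9, Cxcl2, Ccl17, Cxcl9 and Cxcl10, taken by symbol from the 55487 genes of the tables. PolyA RNA was measured in mesenteric lymph node (mLN) cells (3 libraries) and in spleen cells (3 libraries). Both groups were total CD45+ hematopoietic cells, freshly prepared from wild-type mice of the strain C57BL6/J, with no treatment named. The sources used here do not state the age of the mice, nor whether replicates came from separate or pooled animals. The p-values therefore reflect the spread between libraries of a tissue, which may be technical. The comparison asks how RNA of hematopoietic cells differs between the node that drains the intestine and the spleen.

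Chemokines are small secreted proteins that steer leukocytes through G protein-coupled receptors. They are classed by the spacing of their first cysteines into CC (Ccl), CXC (Cxcl) and C (Xcl) families. In lymphoid organs, stromal cells make those that lay out the B-cell and T-cell zones, while hematopoietic cells make many that gather effector cells. Activated NK and T cells release Ccl3, Ccl4, Ccl5 and Xcl1. Myeloid cells make Ccl6, Ccl9 and Cxcl2, and dendritic cells make Ccl17. Cxcl9 and Cxcl10 are induced by interferon in dendritic cells, macrophages and other cells.

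The libraries held 12584244 to 18119551 expected counts. Ptprc, which encodes CD45, stood at 2675 ± 35.0 CPM (counts scaled to the library total) in mLN and 2191 ± 39.0 CPM in spleen (SD, n = 3 each). Of 10 stromal and endothelial genes listed, 5 were tested, with 3 lower and 0 higher (median log2 fold change -0.90, sum 211 to 231 CPM in mLN and 214 to 219 CPM in spleen), with Pdgfrb at -1.97 and Cdh5 at -1.18. Nearly all of that sum was Pecam1, which was not called (213 CPM in mLN and 202 CPM in spleen). The next highest gene, Ltbr, had 3.89 CPM in mLN and 7.35 CPM in spleen. All 8 B-cell genes were lower (median -0.88), as were all 8 erythroid genes (median -6.87), of which Car1 had no counts in mLN, while plasmacytoid dendritic-cell genes were split, 3 higher and 4 lower of 8 (median -0.64). Of 6 megakaryocyte and platelet genes 2 were tested, Itgb3 at 0.88 and Itga2b at -2.37. Pdpn, a gene of lymphoid stroma, had no counts in either tissue. Stromal chemokines of the lymphoid zones were at or near 0: Ccl19 had 0 counts in mLN and 3 in spleen over all libraries of a tissue, Ccl21a 1 in mLN and 0 in spleen, and Cxcl13 0 in mLN and 1 in spleen. Read numbers of most of the 10 genes were small, from 189 to 455 counts in mLN and from 194 to 1467 in spleen for 7 of them, with Ccl5 far above and Cxcl2 and Ccl17 below.

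Promoter sequences are given for 4 genes that stand as neighbours on a chromosome and moved in the same direction, Cxcl9 with Cxcl10 and Ccl6 with Ccl9. They are the 250 bases before the RefSeq start (build GRCm38.p6), 5′ to 3′ on the gene's strand. Capitals mark matches, on either strand, to an interferon regulatory factor element (GAAANNGAAA), to an AP-1 element (TGANTCA) or to the kappa-B consensus of NF-kappa-B.
Cxcl10, minus strand, chr5:92348890-92349139: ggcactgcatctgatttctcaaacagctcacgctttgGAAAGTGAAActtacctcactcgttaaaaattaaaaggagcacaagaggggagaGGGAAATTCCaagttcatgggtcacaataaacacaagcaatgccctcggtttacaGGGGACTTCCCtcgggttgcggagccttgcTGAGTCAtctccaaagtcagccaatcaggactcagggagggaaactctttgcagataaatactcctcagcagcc
Cxcl9, minus strand, chr5:92328080-92328329: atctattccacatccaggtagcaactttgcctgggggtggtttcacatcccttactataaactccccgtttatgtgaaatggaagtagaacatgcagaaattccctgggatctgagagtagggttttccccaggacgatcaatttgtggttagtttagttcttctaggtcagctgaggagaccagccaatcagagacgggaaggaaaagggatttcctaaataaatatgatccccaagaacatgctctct
Ccl9, minus strand, chr11:83578637-83578886: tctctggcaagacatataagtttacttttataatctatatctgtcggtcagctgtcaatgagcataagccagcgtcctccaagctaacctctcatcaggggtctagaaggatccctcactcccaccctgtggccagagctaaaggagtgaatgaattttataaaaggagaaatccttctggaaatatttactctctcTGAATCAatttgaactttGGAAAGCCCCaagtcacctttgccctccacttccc
Ccl6, minus strand, chr11:83593088-83593337: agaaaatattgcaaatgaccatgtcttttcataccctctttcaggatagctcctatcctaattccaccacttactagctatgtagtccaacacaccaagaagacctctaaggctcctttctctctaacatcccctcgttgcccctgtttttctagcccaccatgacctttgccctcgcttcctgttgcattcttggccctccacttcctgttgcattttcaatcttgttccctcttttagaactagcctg
The Cxcl10 window held all 3 motifs: GAAAGTGAAA, TGAGTCA and, for kappa-B, GGGAAATTCC and the overlapping GGGGACTTCC and GGGACTTCCC. The Ccl9 window held TGAATCA and a kappa-B match, and the Cxcl9 and Ccl6 windows held none of these letters. Of 32851 promoter windows of that length, 2.98% held GAAANNGAAA, 6.75% TGANTCA and 7.25% the kappa-B consensus. Windows were found for 8 of the 10 genes, all but Ccl4 and Ccl5. Those of Xcl1, Ccl3 and Ccl17 had no match, and that of Cxcl2 had a kappa-B match on both strands, GGGAATTTCC overlapping GGAATTTCCC. A match is a description of these letters and not evidence of a bound factor.

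The CC chemokine genes Ccl3, Ccl4, Ccl5, Ccl6 and Ccl9 were lower in mLN. Xcl1, Cxcl9 and Cxcl10 were modestly higher on expected counts, and these 3 calls were lost once effective length was taken into account. The log2 fold change of Xcl1 hardly moved, at 0.63 on counts and 0.60 with the effective-length offset. Those of Cxcl9 (0.74 and 0.43) and Cxcl10 (0.56 and 0.24) shrank. The low-count filter kept 9 of the 10 genes. By edgeR's quasi-likelihood test on expected counts, 5 of these 9 were lower (Ccl3, Ccl6, Ccl9, Ccl4 and Ccl5), 3 were higher (Cxcl9, Xcl1 and Cxcl10) and Cxcl2 was not called. Ccl17 was too low to test. Over all 14427 genes tested the same test called 45.5%, 23.8% lower and 21.8% higher, so calls were common in this comparison. Changes of at least 2-fold were less so: 4 of the 9 genes were lower by that much, against 8.6% of all genes, and 0 were higher by that much, against 3.67%. The CPM of the tissues did not overlap for 8 of the 9 genes, against 52.9% of all genes, and the TPM for 7 of 9, against 44.8%. The 7 in TPM leave out Cxcl9 and Cxcl10 and include Cxcl2, which overlapped in CPM and had few counts. When a coefficient of variation between libraries of 0.2 was assumed, 5 of the 9 kept a call, against 19.9% of all genes, and with 0.4 the 2 genes Ccl3 and Ccl6 did, against 6.4%. The median log2 fold change was -0.58 for the 9 genes and -0.00179 for all genes.

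**Figure D1:**
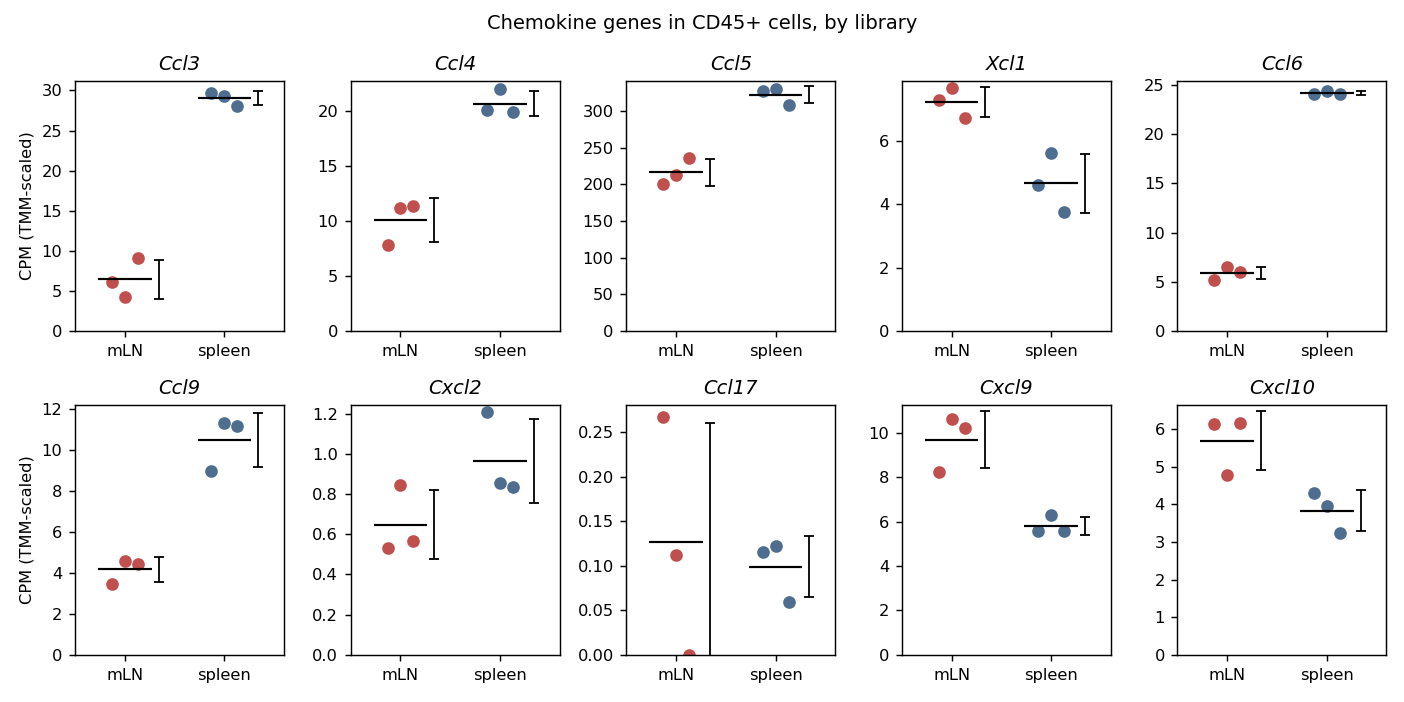
CPM (counts scaled to the library total, TMM) of the 10 chemokine genes in each library, 3 mLN (left) and 3 spleen (right) in each panel; horizontal lines are means, bars are SD and each panel has its own axis from 0. Ccl3, Ccl4, Ccl5, Ccl6 and Ccl9 lie lower in every mLN library, Xcl1, Cxcl9 and Cxcl10 higher, and Cxcl2 and Ccl17 overlap.

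The CC chemokines grouped here under NK and T cells as a likely source fell in unequal measure. Ccl3, which attracts monocytes, NK cells and T cells (chromosome 11, 83647844 to 83649355, GRCm38, as for all gene positions), had 6.14, 4.22 and 9.07 CPM in the mLN libraries, against 29.7, 29.4 and 28.0 CPM in the spleen libraries. The tissues did not overlap, and the mLN libraries spread far more widely around their mean than the spleen libraries. Its log2 fold change, mLN over spleen, was -2.20 (SE 0.168, adjusted p = 9.79e-10), a level 4.61-fold lower. Ccl4, its neighbour (chromosome 11, 83662584 to 83664683), had 7.81, 11.1 and 11.3 CPM in mLN, against 20.1, 22.0 and 19.9 CPM in spleen. All mLN libraries were lower, with a log2 fold change of -1.03 (SE 0.130, adjusted p = 8.32e-09).

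Ccl5, stored and secreted by cytotoxic and memory T cells and NK cells (chromosome 11, 83525778 to 83530518), had 201, 212 and 236 CPM in mLN, against 328, 330 and 308 CPM in spleen. Every mLN library was lower, by a smaller factor than for Ccl3: the log2 fold change was -0.58 (SE 0.0486, adjusted p = 1.00e-07). Its call was lost with the assumed coefficient of variation of 0.2 (edgeR adjusted p = 0.0732). Xcl1, the ligand of the type 1 dendritic-cell receptor Xcr1, stood apart (chromosome 1, 164931644 to 164935527). It had 7.27, 7.65 and 6.72 CPM in mLN, against 4.60, 5.60 and 3.77 CPM in spleen, with no overlap. The log2 fold change was 0.63 (SE 0.2, adjusted p = 0.00817). This call was lost without spleen replicate 3 (adjusted p = 0.0612) and with the effective-length offset (log2 fold change 0.60, adjusted p = 0.0513). The gene Gm20743 overlaps Xcl1 on the opposite strand, with 53 counts in mLN and 32 in spleen, beside 328 in mLN and 235 in spleen for Xcl1, and the strand setting of the counting is not known.

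Markers of the likely source cells were set beside these values. Of 17 listed NK-cell genes 14 were tested, 10 lower and 3 higher (median log2 fold change -0.63), among them the egress receptor gene S1pr5 (-3.44), the granzyme gene Gzma (-1.61), Txk (1.32) and Il2rb (0.39). Their summed level was 805 to 828 CPM in mLN and 755 to 784 CPM in spleen, and Klri2 had no counts in mLN. Much of that sum came from the 3 higher genes. These were Il2rb (378 CPM in mLN and 288 CPM in spleen), Nkg7 (150 and 123 CPM) and Txk (106 and 42.5 CPM). Il2rb and Nkg7 are also on the CD8 T-cell list that follows, so the 2 lists share genes. Of 11 genes of memory and effector CD8 T cells 8 were higher and 0 lower (median 0.39), with a sum of 1783 to 1805 CPM in mLN and 1082 to 1121 CPM in spleen, led by Gzmm (1.45) and Cd8b1 (1.21). All 13 pan-T genes were higher (median 1.19, sum 3598 to 3636 CPM in mLN and 1530 to 1533 CPM in spleen), with Trat1 at 1.57, and no gene of these T-cell lists was at 0. Basophils and mast cells, which can also make Ccl3 and Ccl4, had all 8 listed genes lower (median -6.53, or -5.19 with Ms4a2 and Cyp11a1, which had no counts in mLN, at their bound), with a sum of 2.14 to 3.54 CPM in mLN and 106 to 110 CPM in spleen. The part of these cells in the results for Ccl3, Ccl4, Ccl5 and Xcl1 was not tested. Ccl3 and Ccl4 were not set against the monocyte, macrophage, neutrophil and B-cell lists described elsewhere. The part of those cells was not tested either. In these bulk libraries fewer cells of a type and less RNA per cell cannot be told apart.

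The level of each chemokine was then taken relative to the mean log2 CPM of the NK list in the same library. Ccl3 lay at -1.26 ± 0.543 in mLN and 0.28 ± 0.0626 in spleen (SD, n = 3 each), a difference of -1.54. Ccl4 lay at -0.58 ± 0.357 in mLN and -0.21 ± 0.112 in spleen, a difference of -0.37, and Xcl1 at -1.04 ± 0.104 in mLN and -2.34 ± 0.308 in spleen, a difference of 1.30. The tissues did not overlap for these 3 genes (exact permutation test, two-sided, p = 0.1, which is the lowest reachable with 3 libraries a tissue, and 0.129 after adjustment over 9 chemokines). For Ccl4 this rested on the setting: the difference was -0.17 without mLN replicate 1, and -0.21 with overlap when the median of the list replaced its mean (exact permutation p = 0.5). Ccl5 lay at 3.84 ± 0.166 in mLN and 3.75 ± 0.0771 in spleen and overlapped (exact permutation p = 0.4, difference 0.09), while with the median of the list the difference was 0.26 without overlap (exact permutation p = 0.1). On the mean, Ccl5 thus differed between tissues by about as much as the mean of the NK list, Ccl3 fell further than that mean, and Xcl1 moved the opposite way. Against the CD8 list the differences were -2.78 for Ccl3, -1.61 for Ccl4, -1.14 for Ccl5 and 0.07 for Xcl1, which overlapped. The sign for Ccl5 depended on the list.

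**Figure D2:**
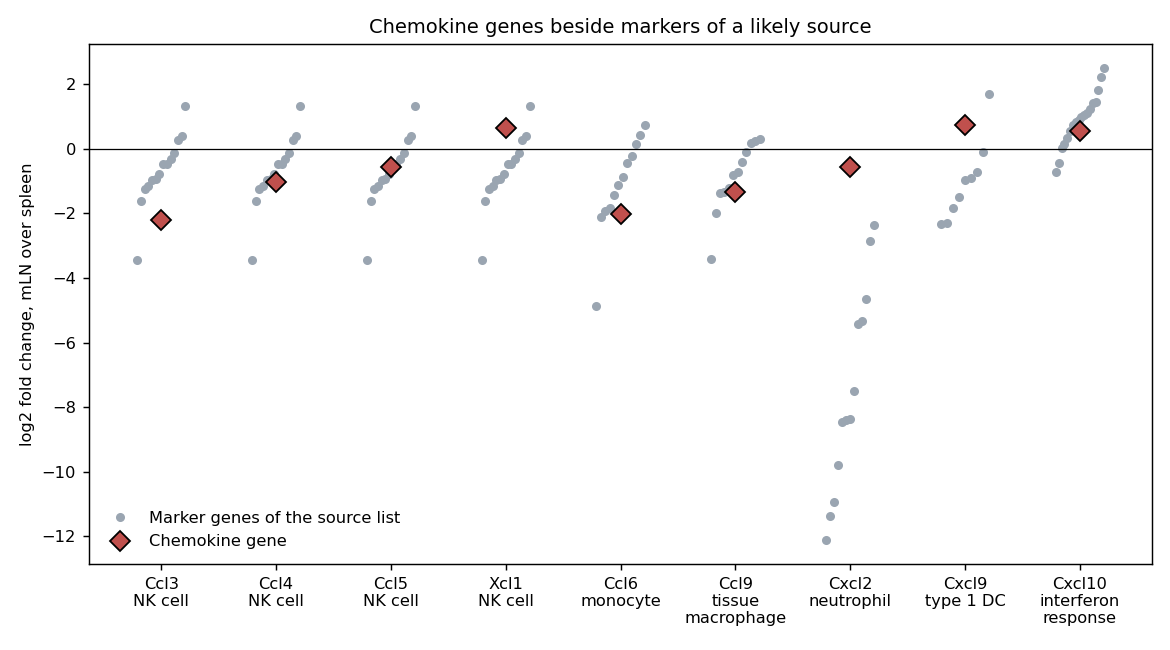
Fitted log2 fold change, mLN over spleen, of 9 chemokine genes (diamonds) beside the tested marker genes of a likely source (circles), with the list named under each gene. Ccl3 lies below all NK markers but S1pr5, Cxcl2 lies above all neutrophil markers, and Cxcl9 above all but 1 marker of type 1 dendritic cells.

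Ccl6 and Ccl9, CC chemokines of macrophages and other myeloid cells described in rodents, fell together. Ccl6 (chromosome 11, 83587882 to 83593087) had 5.20, 6.47 and 5.99 CPM in mLN, against 24.0, 24.4 and 24.0 CPM in spleen. The tissues stood far apart and the spleen libraries were almost equal, giving a log2 fold change of -2.03 (SE 0.130, adjusted p = 4.15e-17). Ccl9 (chromosome 11, 83572919 to 83578636) had 3.47, 4.61 and 4.45 CPM in mLN, against 8.97, 11.3 and 11.2 CPM in spleen. It too was lower in every mLN library, with a log2 fold change of -1.32 (SE 0.182, adjusted p = 6.18e-08). E230016K23Rik overlaps Ccl6 on the opposite strand with 3 counts in mLN and 20 in spleen, beside 267 in mLN and 1221 in spleen for Ccl6.

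Cxcl2, a neutrophil attractant that macrophages, monocytes and neutrophils make on stimulation (chromosome 5, 90903871 to 90905938), was barely detected. It had 8, 15 and 7 counts in the mLN libraries, against 21, 14 and 14 in the spleen libraries, or 0.648 ± 0.170 CPM in mLN and 0.966 ± 0.209 CPM in spleen. The tissues overlapped in CPM, and in TPM they were only just apart (highest 0.65 in mLN, lowest 0.67 in spleen). The log2 fold change of -0.55 (SE 0.519, adjusted p = 0.414) was not detectable as a difference at this depth. The neutrophil list beside it was lower in all 13 genes (median -8.36, or -7.49 with Ly6g at its bound), led by Ltf with 3 counts in mLN and 16728 in spleen and Camp with 1 in mLN and 3971 in spleen, with a sum of 24.1 to 25.6 CPM in mLN and 1522 to 1554 CPM in spleen, and Ly6g had no counts in mLN. Relative to that list Cxcl2 lay at 0.32 ± 0.334 in mLN and -5.86 ± 0.270 in spleen, a difference of 6.18 (exact permutation p = 0.1, adjusted p = 0.129), against neutrophil genes that were almost absent from mLN. Relative to the monocyte list, its other likely source, the difference was 0.60 (exact permutation p = 0.1).

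Myeloid marker lists moved with Ccl6 and Ccl9. In the monocyte list 8 of 12 genes were lower and 3 higher (median -0.99, sum 669 to 679 CPM in mLN and 961 to 983 CPM in spleen), with Cd300e at -4.88, Chil3 at -2.10 and Ly6c2 at 0.74. In the list of red-pulp and tissue macrophages 7 of 12 tested genes were lower and 0 higher (median -0.76, sum 108 to 120 CPM in mLN and 185 to 196 CPM in spleen), with the iron exporter gene Slc40a1 at -3.40 and the haem oxygenase gene Hmox1 at -2.0. No listed gene of either was at 0 in a tissue. The list of marginal-zone and sinus macrophages went the other way, with 4 of 5 genes higher (sum 54.4 to 58.4 CPM in mLN and 16.8 to 18.5 CPM in spleen), Marco at 5.81, Cd209b with no counts in spleen, and Cd5l at -0.62. Relative to the monocyte list Ccl6 lay at -1.81 ± 0.214 in mLN and -0.89 ± 0.0618 in spleen, and relative to the macrophage list Ccl9 lay at -0.52 ± 0.145 in mLN and -0.06 ± 0.241 in spleen. Both were thus lower in mLN by more than the mean of the list, with a difference of -0.92 for Ccl6 and -0.46 for Ccl9 and no overlap (exact permutation p = 0.1 each, adjusted p = 0.129). The part of these cells in the results for Ccl6 and Ccl9 was not tested.

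Ccl17, a ligand of Ccr4 made by activated dendritic cells (chromosome 8, 94810453 to 94812036), had 4, 2 and 0 counts in the mLN libraries, against 2, 2 and 1 in the spleen libraries. At 6 counts in mLN and 5 in spleen no difference could be seen at this depth. Ccl22, the other Ccr4 ligand, was 2.98 higher on the log2 scale (SE 0.203, adjusted p = 6.18e-16), at 15.9 ± 1.40 CPM in mLN and 2.01 ± 0.829 CPM in spleen. The migratory dendritic-cell list, which holds Ccl22, had 7 of 9 tested genes higher and 1 lower (median 2.84, sum 611 to 620 CPM in mLN and 358 to 366 CPM in spleen), led by Aldh1a2 (4.09) and Fscn1 (3.28), with Il4i1 at -0.35. The largest part of the sum in mLN was Ccr7 (284 CPM in mLN and 139 CPM in spleen, log2 fold change 1.03). None of that list was at 0. Type 2 dendritic-cell genes, another likely source, were lower in 5 of 7 tested and higher in 0 (median -0.99, sum 153 to 172 CPM in mLN and 318 to 321 CPM in spleen), with Itgam at -1.64, Clec12a at -1.26 and Clec4a4 with no counts in mLN. Clec10a (-0.23, adjusted p = 0.567) and Esam (-0.99, adjusted p = 0.122) were not called.

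Cxcl9 and Cxcl10, ligands of Cxcr3 that draw effector T cells and NK cells, rose on the count scale. Cxcl9 (chromosome 5, 92321347 to 92328079) had 8.21, 10.6 and 10.2 CPM in mLN, against 5.58, 6.27 and 5.56 CPM in spleen. All mLN libraries were higher, with a log2 fold change of 0.74 (SE 0.171, adjusted p = 0.000396). Cxcl10 (chromosome 5, 92346638 to 92348889) had 6.14, 4.78 and 6.15 CPM in mLN, against 4.31, 3.96 and 3.23 CPM in spleen. The tissues did not overlap but came close, with a log2 fold change of 0.56 (SE 0.224, adjusted p = 0.0372). This call was lost in 10 of 16 alternatives, among them leaving out mLN replicate 1 (adjusted p = 0.112), mLN replicate 3 (0.101), spleen replicate 2 (0.0691) or spleen replicate 3 (0.151). Art3 overlaps Cxcl10 on the opposite strand with 33 counts in mLN and 22 in spleen, beside 253 in mLN and 194 in spleen for Cxcl10.

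Per transcript length, Cxcl9 and Cxcl10 did not separate the tissues. In TPM, which also divides by transcript length, Cxcl9 had 4.47, 5.71 and 5.48 in mLN, against 3.09, 6.06 and 3.10 in spleen, so that spleen replicate 2 was the highest of all. Its effective length was 1537 bases in that library and 2643 to 2673 in the other 5. Cxcl10 had 9.84, 7.61 and 9.63 TPM in mLN, against 11.4, 6.42 and 6.04 TPM in spleen, with an effective length of 557 bases in spleen replicate 1 and 795 to 918 in the others. With these lengths as an offset in the same test, the log2 fold change was 0.43 for Cxcl9 (adjusted p = 0.252) and 0.24 for Cxcl10 (adjusted p = 0.576). Cxcl2 and Ccl9 also had lengths that varied, from 521 to 1854 bases and from 980 to 2790 bases. Effective length in RSEM is a mean over isoforms weighted by their estimated share. With the offset, 5 of the 9 genes were called, the same 5 that fell on the count scale, against 32.2% of all genes.

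**Figure D3:**
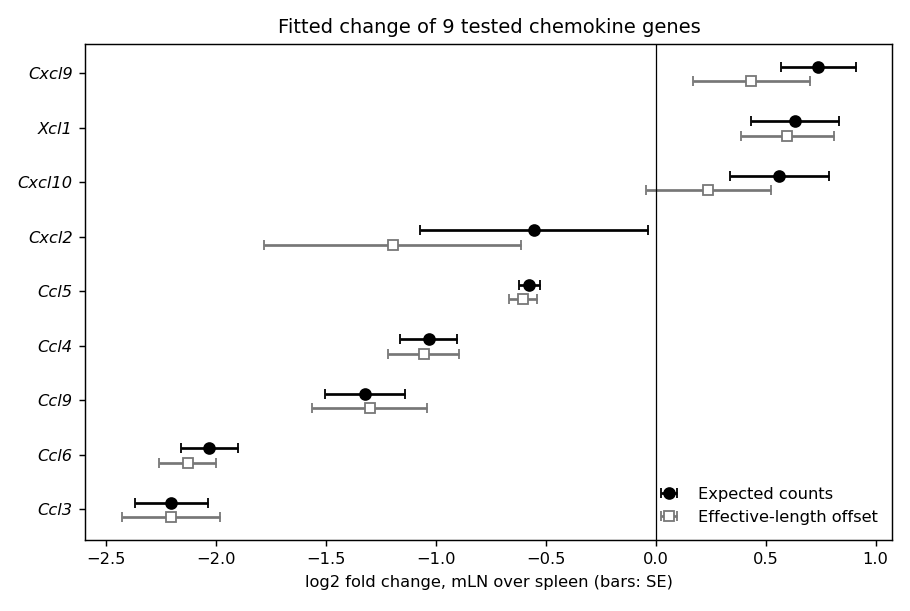
Log2 fold change, mLN over spleen, with its SE for the 9 tested chemokine genes, from expected counts (filled circles) and with the effective-length offset (open squares). The 5 CC genes stay between -0.61 and -2.21 with the offset, while Xcl1 lies at 0.60, Cxcl9 at 0.43, Cxcl10 at 0.24 and Cxcl2 at -1.20.

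Interferon-response genes were higher beside Cxcl9 and Cxcl10. Of 18 listed, 14 were higher and 2 lower (median 0.93, sum 1457 to 1492 CPM in mLN and 1235 to 1257 CPM in spleen), led by Ifi44 (2.52) and Ifit1 (2.22), with Rsad2 at -0.72 and the class II regulator Ciita at -0.44. Relative to this list Cxcl10 lay at -2.93 ± 0.158 in mLN and -2.61 ± 0.218 in spleen and overlapped (exact permutation p = 0.3, difference -0.32). With the median of the list the difference was -0.78 without overlap (exact permutation p = 0.1), and relative to the monocyte list it was 1.66. Cxcl9 was set first against type 1 dendritic cells, whose list had 7 of 9 genes lower and 1 higher, Itgae (1.70), with a median of -0.97 and Xcr1 (-2.33) and Clec9a (-2.29) lowest. Its sum was 798 to 814 CPM in mLN and 1365 to 1412 CPM in spleen, with none at 0. Most of that sum was Wdfy4 (393 CPM in mLN and 741 CPM in spleen) and Irf8 (317 and 525 CPM). Xcr1 (2.59 and 13.2 CPM) and Clec9a (1.03 and 5.08 CPM) added little to it. Relative to the type 1 dendritic-cell list Cxcl9 lay at -0.56 ± 0.216 in mLN and -2.25 ± 0.161 in spleen, a difference of 1.69 with no overlap (exact permutation p = 0.1, adjusted p = 0.129). Relative to the interferon list the difference was -0.16, with overlap (exact permutation p = 0.4). The part of interferon in these results was not tested.

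Levels of the chemokines were compared with each other per length, in TPM. Ccl5 was far above the rest in both tissues, at 978 ± 85.8 TPM in mLN and 1534 ± 68.4 TPM in spleen (SD, n = 3 each), and made up 89.5% to 90.0% of the summed TPM of the 10 genes in mLN libraries and 86.2% to 86.8% in spleen libraries. Below it in mLN came Xcl1 (33.6 ± 2.15), Ccl4 (32.6 ± 6.47), Ccl3 (16.9 ± 6.38), Ccl6 (9.46 ± 0.548), Cxcl10 (9.03 ± 1.23), Cxcl9 (5.22 ± 0.660), Ccl9 (3.72 ± 1.41), Ccl17 and Cxcl2. In spleen the order was Ccl3 (79.1 ± 2.70), Ccl4 (69.9 ± 3.58), Ccl6 (42.8 ± 0.370), Xcl1 (22.9 ± 4.46), Ccl9 (9.14 ± 0.871), Cxcl10 (7.96 ± 3.0), Cxcl9 (4.08 ± 1.71), Cxcl2 and Ccl17. Xcl1 thus stood above Ccl3 and Ccl6 in mLN and below both in spleen, without overlap. In mLN, libraries of neighbours in this order overlapped for Xcl1 and Ccl4, Ccl6 and Cxcl10, Cxcl9 and Ccl9, and Ccl17 and Cxcl2, and in spleen for Ccl9 and Cxcl10 and for Cxcl10 and Cxcl9.

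**Figure D4:**
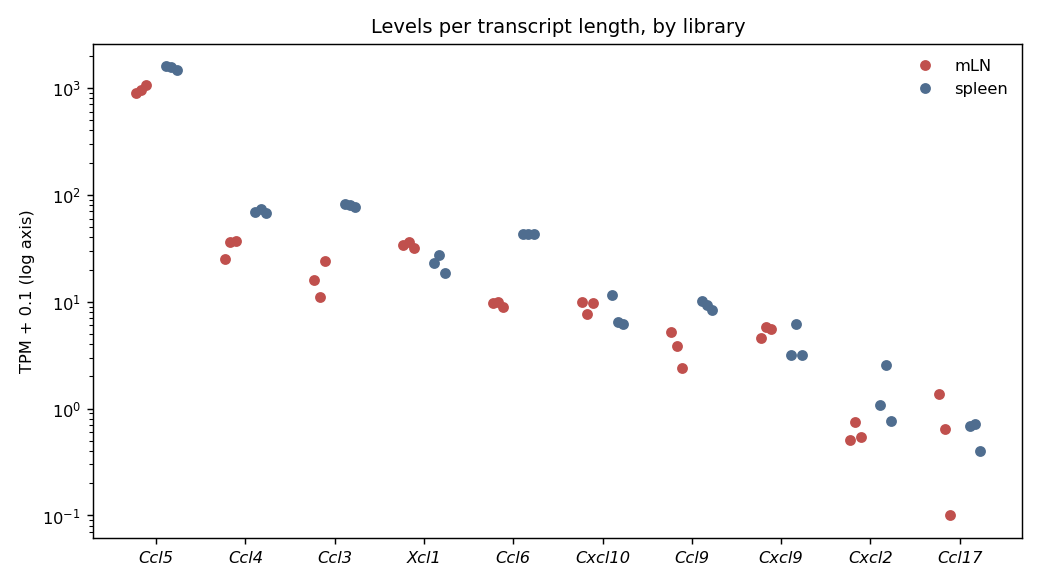
TPM plus 0.1 on a log axis for the 10 chemokine genes in each library, 3 mLN (left of each pair) and 3 spleen (right), ordered by mean. Ccl5 lies more than 10-fold above the next gene in both tissues, and single spleen libraries stand apart for Cxcl10, Cxcl9 and Cxcl2.

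The genes lie in groups on 2 chromosomes, apart from Xcl1, Ccl17 and Cxcl2, which is on chromosome 5 but outside the Cxcl9 and Cxcl10 pair. Ccl3, Ccl4, Ccl5, Ccl6 and Ccl9 lie within 139 kb of chromosome 11 (83525778 to 83664683), and all 5 were lower in mLN. Neighbours within 50 kb, chosen by position after the values had been seen, were Taf15 (log2 fold change -0.22, adjusted p = 7.74e-06), Heatr9 (-0.04, adjusted p = 0.913) and Wfdc17 (-0.41, adjusted p = 0.199), each smaller in size than any of the 5. Cxcl9 and Cxcl10 lie within 27.5 kb of chromosome 5 (92321347 to 92348889), and their tested neighbours went different ways, Sdad1 at 0.36 (adjusted p = 1.03e-07) and Naaa at -0.97 (adjusted p = 1.30e-14).

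**Figure D5:**
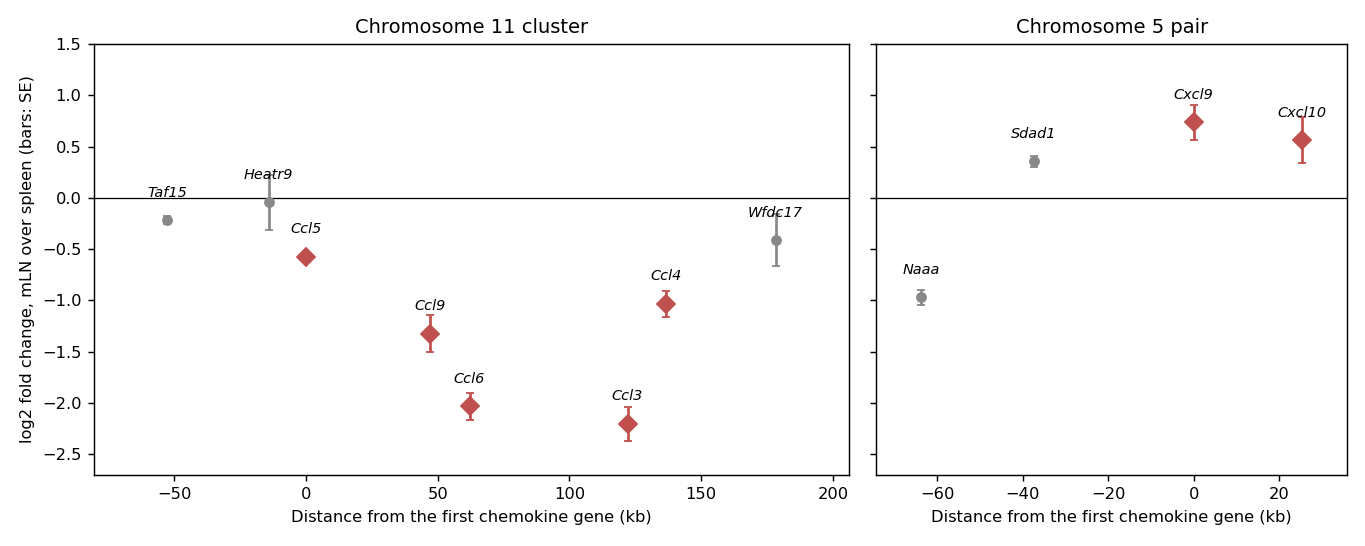
Log2 fold change, mLN over spleen, with its SE against distance in kb from the first chemokine gene, for tested genes on chromosome 11 (left) and chromosome 5 (right). Diamonds are the chemokine genes and circles other genes within 50 kb. The 5 chromosome 11 chemokines lie between -0.58 and -2.20, below their 3 neighbours.

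Receptors of these chemokines also moved in both directions. Of 11 listed, among which Cxcr3 is named here after its values were seen, 6 were lower and 3 higher (median -1.25). Among the CC receptors, Ccr1, a receptor of Ccl3 and Ccl5, was at 3.78 ± 0.141 CPM in mLN and 13.5 ± 1.26 CPM in spleen (log2 fold change -1.83, adjusted p = 2.23e-12), and Ccr3 lay at -1.25 on the log2 scale (adjusted p = 0.0118). Xcr1 was lower while its ligand gene Xcl1 was higher: it had 2.59 ± 0.677 CPM in mLN and 13.2 ± 0.386 CPM in spleen. Cxcr3 rose with its ligands by 0.36 (adjusted p = 2.60e-06), Ccr4 rose by 1.47 (adjusted p = 5.20e-09), and Cxcr2, carried by neutrophils, had a log2 fold change of -5.32. Of the scavenging receptors Ackr2 lay at -2.48 on the log2 scale (adjusted p = 1.20e-15), and Ackr1, also carried by red-cell precursors, had no counts in mLN and was at least 24.1-fold lower, set against a floor of 3 counts over the mLN libraries.

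Among 31 other chemokine genes, 30 were in the tables and 6 were tested, 3 higher and 1 lower. Besides Ccl22, Cxcl16, the membrane-bound ligand of Cxcr6, rose to 10.96 ± 1.24 CPM in mLN, against 2.86 ± 0.322 CPM in spleen (log2 fold change 1.93, SE 0.193, adjusted p = 2.92e-11). Ccl8 had 83 counts in mLN and 1 in spleen, a ratio of 93.0 (exact 95% interval 16.2 to 3716, counting error only). The platelet gene Ppbp had no counts in mLN and 53 in spleen, at least 15.8-fold lower. Ccl25 (-0.12) and Ccl27a (-0.37) were not called, with adjusted p of 0.727 and 0.546.

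Regulators of chemokine RNA differed by small amounts. Of 22 listed, 11 were higher and 5 lower (median 0.08), and none changed by as much as 1 on the log2 scale. Named after their values were seen, the T-box factor genes of NK and effector T cells went opposite ways, with Tbx21 at 35.4 ± 0.974 CPM in mLN and 45.9 ± 2.58 CPM in spleen (-0.37, adjusted p = 4.67e-05) and Eomes at 133 ± 2.73 CPM in mLN and 83.7 ± 1.91 CPM in spleen (0.67, adjusted p = 1.81e-16). Ifng, the interferon gene whose product induces Cxcl9, was at 4.59 ± 0.649 CPM in mLN and 8.18 ± 1.33 CPM in spleen (-0.83, adjusted p = 0.000414), lower where Cxcl9 was higher. Immediate-early and dissociation stress genes, known to rise when tissue is dissociated, were higher in 12 and lower in 4 of 19 (median 0.41, sum 3189 to 3241 CPM in mLN and 2346 to 2393 CPM in spleen), with Fosb at 1.16, Hspa1a at 1.11, Fosl2 at -0.68 and Egr3 at -0.44. Their part in the chemokine results was not tested.

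The genes whose values over the 6 libraries lay closest to each chemokine were found by the root mean square difference of centred log2 CPM. They were Gcnt2, Nhsl2 and Tnfsf13b for Ccl3 (0.103 to 0.197), Dtl, Rad51ap1 and Tmtc3 for Ccl4 (0.0235 to 0.0752), Scpep1, Gsn and B3gnt8 for Ccl5 (0.0227 to 0.0346) and Cish, Zfp3 and Luzp1 for Xcl1 (0.0712 to 0.0911). For Ccl6 they were Cd24a, E2f8 and Fcrl5 (0.0570 to 0.0871), for Ccl9 Sapcd2, Ccnd1 and E2f7 (0.0843 to 0.0933), for Cxcl9 Ankrd13b, Hpcal1 and Slc26a6 (0.0642 to 0.0809) and for Cxcl10 Calhm6, Pxylp1 and Btbd6 (0.0616 to 0.0691). Among marker genes alone, the closest of those reported were Cadm1 and Csf3r for Ccl3 (0.274 and 0.332), Naaa and Treml4 for Ccl4 (0.121 and 0.149), Sirpa and Pax5 for Ccl5 (0.0653 and 0.0858) and Eomes and Ly6c2 for Xcl1 (0.164 and 0.174). They were Ace and Chil3 for Ccl6 (0.146 and 0.149), Clec12a and Adgre1 for Ccl9 (0.139 and 0.142), Ly6c2 and Eomes for Cxcl9 (0.0926 and 0.147) and Eomes for Cxcl10 (0.159). The libraries fall into 2 tissues, so this measure follows mainly the size of the tissue difference and says nothing of the source cell.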

How the data were processed

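The authors deposited 1 RSEM gene table per library. STAR, RSEM and the build mm10 are named per the submitters' processing notes, and the sources used here give no version, annotation or strand setting. Per the file headers the authors' tables hold RSEM's expected counts, TPM, FPKM (not used) and effective lengths, each computed by the authors before deposit. Symbols came from GENCODE M21 (GRCm38, the same assembly), which matched 55141 of 55487 identifiers.

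Expected counts were rounded, genes kept with filterByExpr (14427), scaled by TMM and tested with edgeR 4.0.16 (quasi-likelihood F-test, robust, tissue as the only term, R 4.3.3). A gene was called at a Benjamini-Hochberg adjusted p under 0.05, taken over the whole table, and a printed adjusted p is edgeR's unless another test is named. CPM is TMM-scaled, and log2 CPM has a prior count of 2. Fold changes are mLN over spleen, and SE were taken from the F statistic. The test was tried on simulated counts. With no molecular identifiers in the reads, intervals and floors (3 counts) express counting error alone.

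The genes and lists were chosen with earlier results of these data known. Named were all 10 chemokines, called other chemokines of at least 1 CPM, called receptors and regulators with a log2 change of at least 1, from other lists up to 2 called genes in each direction, and the 3 genes and 2 markers nearest by the likeness measure. A few genes that this rule names are not reported here. DESeq2 1.42.0 was an alternative. The test did not pair libraries by replicate number. Same-numbered mLN and spleen libraries had correlations of deviations from the tissue means of 0.0267, 0.0275 and -0.0081. Those of differently numbered libraries ran from -0.0394 to 0.0123. Correlations this small cannot decide whether same-numbered libraries came from the same mice. Within a tissue, libraries differed by more than counting noise (median squared difference 2.52 to 2.97 times) and all were kept.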

Additional observations from a re-analysis of the deposited data

How the results depend on the processing

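Of 16 alternatives to the test, Ccl3 and Ccl6 kept their call and direction in all, and no chemokine changed direction in any. Cxcl10 lost its call in 10, Xcl1 in 4, Cxcl9 and Ccl5 in 2 each, Ccl4 and Ccl9 in 1 each. With the effective-length offset 5 chemokines were called, 0 of them higher in mLN, and the cause was not tested. Coefficients of variation of 0.2 and 0.4, assumed for every gene and chosen after seeing the data, widen the error by construction. With 0.2 the test called 2868 genes, 934 higher and 1934 lower in mLN, among them 5 chemokines, 1 higher. With 0.4 it called 923 genes, 197 higher and 726 lower, among them 2 chemokines, 0 higher and 2 lower. Leaving out each library in turn gave 6 to 8 chemokines called, 1 to 3 of them higher, and the lowest count came without spleen replicate 3. Neighbours in the TPM order whose libraries overlapped numbered 2 to 4 in mLN and 1 to 2 in spleen when each library was left out, since fewer libraries span a narrower range. With the second source list the difference was -1.14 for Ccl5, -0.16 for Cxcl9 and 1.66 for Cxcl10, each reversed, because another set of genes is subtracted. For Cxcl2 it was 0.60, against 6.18. With the median of the source list the overlap of the tissues ended for Ccl5 (0.26) and Cxcl10 (-0.78) and began for Ccl4 (-0.21). With library totals in place of TMM the median of all genes shifted by -0.05, and 39.2% of calls were higher in mLN, against 47.8%. A replicate block, with numbers not known to pair the libraries, called 6455 genes and the same 8 chemokines. Depth limits Cxcl2 and Ccl17: with the stricter filter Cxcl2 was not tested, and Ccl17 did not pass the filter used.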
